A study of Mus musculus with 20 samples.

Results

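Ribosomal protein genes encode the proteins that, with ribosomal RNA, build the large and the small subunit of the cytosolic ribosome. The set described here was taken by symbol from the GENCODE vM21 annotation of the mouse genome, as all protein-coding genes named Rpl or Rps followed by a digit together with Rplp0, Rplp1, Rplp2 and Rpsa, leaving out the Rps6k kinases, which are not ribosomal proteins. It held 92 of the 21938 protein-coding genes on chromosomes 1 to 19, X and Y. Of these, 43 encode large subunit proteins, 31 small subunit proteins (Rpsa included) and 3 the stalk proteins of the large subunit. A further 8 are paralogs of a ribosomal protein gene and 6 carry a symbol ending in -ps and a number. The symbol rule also took in Rps19bp1, which encodes a binding protein of Rps19 and not a ribosomal protein.

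Every cell needs the ribosomal proteins in nearly equal amounts, and growing tissue needs many ribosomes. Transcripts of most of these genes begin in a stretch of C and T bases, the terminal oligopyrimidine motif, through which the mTOR pathway controls their translation. Loss of one copy of several of these genes causes Diamond-Blackfan anaemia in humans, a bone marrow failure that often comes with malformations of the face and skeleton, and mouse mutants of others have skeletal or pigment defects. H3K27ac, acetylation of lysine 27 of histone H3, is found at active promoters and enhancers, and a peak at a promoter is a stretch where this mark was enriched over the background.

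H3K27ac was mapped by ChIP-seq in freshly dissected face tissue of wild-type mouse embryos with mixed cell types, with 10 libraries whose lists of peaks were used. Embryos of e11.5, the embryonic day, gave 4 libraries, from 2 jaw tissues (mandibular and maxillary process) and 2 nasal tissues (medial and lateral nasal plate), while e13.5 and e15.5 gave 3 each, from the same jaw tissues and from the nose. With a single library for each region and stage, regional and technical differences within a stage cannot be told apart, and the strain and number of embryos per library were not given in the sources used here. A tissue with fewer acetylated cells and one with less acetylation per cell cannot be told apart in such data. The read depth behind each list was unknown.

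The lists held between 6573 and 25947 peaks, and 4 of them held fewer than 10000. These were the e11.5 mandibular and maxillary processes, the e13.5 mandibular process and the e15.5 library labelled nose, called the smaller lists in what follows, and the other 6 are called the larger lists. At e15.5, label and list name gave different regions for each library, so these 3 are called here by their labels. They were left out of regional comparisons, apart from an alternative fit that used all 10 libraries by label. By list name, the libraries labelled mandibular, maxillary and nose were nose, mandibular and maxillary. Marker promoters did not settle the regions of all 3. In the library labelled mandibular 1 of 8 jaw genes and 4 of 4 frontonasal genes had a promoter peak, in the one labelled maxillary 6 and 2, and in the one labelled nose 0 and 2. Earlier nasal libraries had 1 to 3 jaw and 4 frontonasal genes with a peak. The maxillary process had 2 and 2 at e11.5 and 1 and 3 at e13.5. The library labelled mandibular thus had counts within the range of the earlier nasal libraries. They were unlike those of the mandibular process at e11.5 (6 and 0) and at e13.5 (5 and 2). The library labelled maxillary had counts near those of the mandibular process at e13.5. Promoter peaks were found for 6 to 10 of 10 facial mesenchyme markers in every library and for none of 4 liver markers. Of 7 epithelium markers, 0 to 2 had one in the smaller lists and 1 to 6 in the larger, and the part of this difference in the results was not tested.

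Sequence at the starts of these genes is shown first, since transcripts that begin in a C and T stretch are a known trait of the family. Promoter windows from RefSeq (build GRCm38.p6), 250 bases before to 50 after the start, matched 66 of the 92 genes, of which 62 had a promoter peak in at least 1 library. The windows printed here hold 30 bases, 20 before the start and 10 from it, 5′ to 3′ on the gene's strand, and capitals mark the longest run of 5 or more C or T bases close to the start, the first where runs tie.
Rplp2 (stalk protein, chr7:141447631-141447660, plus strand): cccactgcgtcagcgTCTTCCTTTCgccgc
Rpl38 (large subunit, chr11:114668560-114668589, plus strand): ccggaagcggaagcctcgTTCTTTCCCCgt
Rplp0 (stalk protein, chr5:115559447-115559476, plus strand): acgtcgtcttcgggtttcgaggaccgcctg
Rpsa (small subunit, chr9:120127746-120127775, plus strand): tggctgtgggttatttaaggacgtcatttc
Rpl5 (large subunit, chr5:107900508-107900537, plus strand): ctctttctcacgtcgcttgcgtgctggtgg
Rpl11 (large subunit, chr4:136053384-136053413, minus strand): gcctcctgacccataaggccacggggccgg
Rps27rt (no peak in any library, chr9:114982730-114982759, minus strand): ggttaagaacttaTCCCTTgctttccggcg
Rpl39l (no peak in any library, chr16:10170208-10170237, plus strand): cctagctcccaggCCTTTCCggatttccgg
Rpl10l (no peak in any library, chr12:66284392-66284421, minus strand): agaaatttggcctccattttgcggctggcg
Rpl3l (no peak in any library, chr17:24727806-24727835, plus strand): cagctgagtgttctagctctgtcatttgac

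Among the 62 ribosomal protein promoters with a peak, 14 (22.6%) had an unbroken run of at least 5 C or T bases beginning at the annotated start, against 3.81% of 16538 protein-coding promoters and 4.58% of 2247 whose genes had a peak in all 10 libraries. The longest such run was that of Rpl27a, with 16 bases, followed by Rpl15 with 13. Annotated starts limit this count, since the RefSeq start lay within 10 bases of the principal GENCODE start for only 26 of the 66 genes, and Rplp0, Rpsa, Rpl5 and Rpl11 had no such run at the RefSeq start. Of the 4 matched genes with no peak, 1 (25%) had a run from the start. This was Rps27rt, with 6 bases that are in lower case above because an equal run came first. Rpl39l, also without a peak, had a run near the start, so a run and a promoter peak did not always go together.

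Short motifs were searched on both strands of the 300-base windows. CCGGAA, the core bound by ETS factors such as GABP, was present in 31 of the 62 ribosomal protein promoters with a peak (50%), against 19.9% of all promoters and 30.2% of those with a peak in all 10 libraries. TCTCGCG, which is part of the palindrome TCTCGCGAGA of CpG-rich promoters, was present in 14 (22.6%), against 3.77% and 7.88%. The whole palindrome was present in 6 (9.68%), against 0.720% and 1.96%. The GC box GGGCGG was found in 62.9% of the ribosomal protein promoters, against 48.4% of all and 69.3% of those with a peak in all 10 libraries, and the CCAAT box in 32.3%, against 38.6% and 36.9%. The TATA box core TATAAA was found in 9.68%, against 12.9% and 6.05%, and the YY1 core GATGGCG in 8.06%, against 4.68% and 7.97%. Among the motifs searched, CCGGAA and TCTCGCG were thus more frequent than in both other sets. The remaining motifs were not, apart from a small excess of the YY1 core, and a match only describes the letters in the window.

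The 6 windows with the whole palindrome are shown, chosen after the matches were seen, with the palindrome and any overlapping match to its part in capitals.
Rpl10a (large subunit, chr17:28328524-28328553, plus strand): aacgggcaacTCTCGCGAGAacgcgggctc
Rpl12 (large subunit, chr2:32961648-32961677, plus strand): ggccagcggtTCTCGCGAGAgctgagcttt
Rpl26 (large subunit, chr11:68901533-68901562, plus strand): ccgagacTCTCGCGAGATCTCGCGgcaact
Rps6 (small subunit, chr4:86857399-86857428, minus strand): cgccggctgtTCTCGCGAGAacttagagcg
Rps19 (small subunit, chr7:24884574-24884603, plus strand): cactccgaaaTCTCGCGAGActcgacgccc
Rps28 (small subunit, chr17:33824544-33824573, minus strand): ccgcgtgcggTCTCGCGAGAgcgaaagtga
The palindrome began 54 bases before the RefSeq start in Rpl12, 51 before it in Rps6, 31 in Rpl10a, 26 in Rpl26, 8 in Rps19 and 1 in Rps28. Of these 6 genes, Rpl12 and Rpl26 had a promoter peak in all 10 libraries, Rpl10a, Rps6 and Rps19 in 9 and Rps28 in 8.

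The first question was how many of these promoters carried the mark in each tissue. A gene was taken to have a promoter peak where a peak came within 1 kb of any of its annotated transcript starts. Of the 92 genes, 82 had one in at least 1 library and 40 in all 10 (43.5%), against 13.0% of all protein-coding genes. Only 10 had none in any library (10.9%), against 44.0% of all protein-coding genes. All 77 genes that encode a large subunit, small subunit or stalk protein had a peak in at least 1 library.

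At e11.5, 62 of the 92 genes had a promoter peak in the mandibular process (67.4%, 95% exact Clopper-Pearson interval 56.8 to 76.8%), 60 in the maxillary process (65.2%), 81 in the medial nasal plate (88.0%) and 82 in the lateral nasal plate (89.1%, 80.9 to 94.7%). At e13.5 the counts were 57 in the mandibular process (62.0%, 51.2 to 71.9%), 82 in the maxillary process and 82 in the nose (89.1% each). At e15.5 they were 81 in each of the libraries labelled mandibular and maxillary (88.0%, 79.6 to 93.9%) and 61 in the one labelled nose (66.3%, 55.7 to 75.8%). The libraries fell into 2 bands with no overlap, between 57 and 62 genes in the smaller lists and between 81 and 82 in the larger ones, and each stage had libraries of both. These intervals cover counting error only. Over all protein-coding genes the libraries split in the same way, with 20.5 to 24.9% in the smaller lists and 41.3 to 51.9% in the larger ones. The 2 bands were thus not particular to ribosomal protein genes. Their share was 1.72 to 3.17 times as high as that of all genes in the same library.

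**Figure D1:**
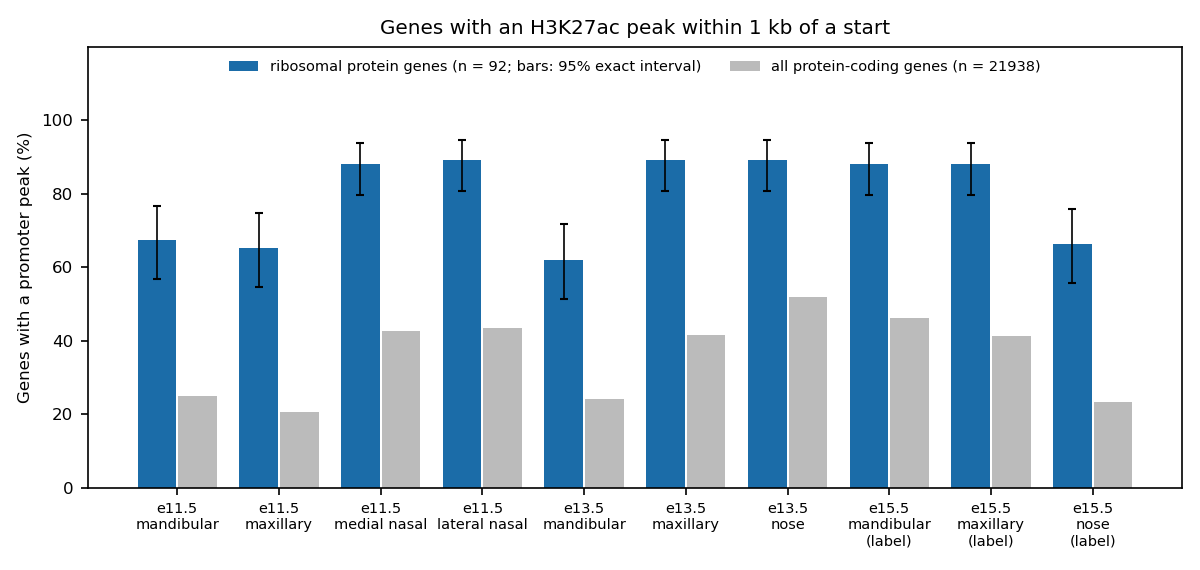
Share of genes with an H3K27ac peak within 1 kb of a start (y axis, percent) in each of the 10 libraries (x axis), for the 92 ribosomal protein genes (blue, with 95% exact intervals) and for all 21938 protein-coding genes (grey). The blue bars stand at 62.0 to 67.4% in the 4 smaller lists and at 88.0 to 89.1% in the 6 larger ones. The grey bars stand at 20.5 to 24.9% and at 41.3 to 51.9%, below the blue bar in every library.

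By stage the mean share was 77.4% ± 12.9 at e11.5 (SD, n = 4), 80.1% ± 15.7 at e13.5 (n = 3) and 80.8% ± 12.6 at e15.5 (n = 3), and these differed by less than the spread within a stage. Between regions of e11.5 and e13.5, the nasal libraries averaged 88.8% ± 0.628 (SD, n = 3) and the jaw libraries 70.9% ± 12.3 (n = 4), with the e13.5 maxillary process, a larger list, at 89.1%. Over all protein-coding genes the stage means were 32.9%, 39.1% and 36.9%, and the nasal and jaw means 46.1% and 27.7%. A higher nasal share was thus not particular to ribosomal protein genes. All 3 nasal lists were larger ones and 3 of the 4 jaw lists were smaller ones. Region and list size thus cannot be told apart here. When only the 6571 peaks with the highest −log10 q were taken from every list, between 60.9% and 87.0% of ribosomal protein genes kept a peak. The highest value was again in the e13.5 maxillary process (87.0%), and the nasal libraries stood at 70.7%, 77.2% and 78.3%, against 64.1%, 65.2%, 60.9% and 87.0% in the jaw libraries. Over all protein-coding genes the share at equal yield was 20.5% to 29.5% per library. At that equal yield 31 of the 92 genes had a peak in all 10 libraries, against 2450 of the 21938 protein-coding genes.

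Most absences fell in the smaller lists. Among the 82 genes with a peak anywhere, 91 gene and library pairs lacked a peak, and 88 of these fell in the smaller lists, out of 328 pairs there. The remaining 3 were Rps19bp1 in the e15.5 libraries labelled mandibular and maxillary, and Rpl14, a large subunit protein gene, in the e11.5 medial nasal plate. The 80 genes with a peak in every larger list lacked one in 25.3% of their pairs in the smaller lists, whereas over the 7132 protein-coding genes with a peak in every larger list the figure was 34.6%. Of these 80 genes, 40 lacked a peak in at least 1 smaller list, and 5 of these (Rpl22l1, Rpl35, Rpl36a, Rplp2 and Rpsa) lacked one in all 4. Within the larger lists, the fold enrichment of the 40 genes that dropped out somewhere had a median rank at the 54.6th percentile of promoter peaks, compared with the 75.0th percentile for the 40 that did not, and their width ranked at the 51.0th compared with the 65.8th percentile.

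Peaks present throughout 1 stage or region and absent from the other were rare among all genes, so the counts here carry little. No ribosomal protein gene had a peak in every e15.5 library and in no e11.5 library, against 0.419% of protein-coding genes, and none had the reverse pattern, against 0.100%. None had a peak in all 3 nasal libraries and in no jaw library of e11.5 and e13.5, against 2.41%.

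By subunit, 28 of the 43 large subunit genes had a peak in all 10 libraries, whereas 10 of the 31 small subunit genes and none of the 3 stalk genes did. In the 4 smaller lists, 33 to 37 of the large subunit genes, 20 to 23 of the small subunit genes and 0 to 1 of the stalk genes had a peak, and in the larger lists all of them did except Rpl14 in the medial nasal plate. The difference between subunits was not tested.

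The stalk genes encode the acidic proteins Rplp1 and Rplp2 and their anchor Rplp0, which recruit translation factors to the ribosome. For Rplp0 (chr5:115559467-115563727, GRCm38, the build of all coordinates here) the peak was 825, 843 and 1109 bp wide in the mandibular process and the medial and lateral nasal plates of e11.5, 1261 and 1249 bp in the maxillary process and nose of e13.5, and 1242 and 1247 bp in the e15.5 libraries labelled mandibular and maxillary. Its peaks were narrow in every list, at the 17.4th percentile of promoter widths on average, although their mean fold enrichment was at the 55.2nd. Rplp1 (chr9:61913284-61914542) had peaks in 8 libraries, of 1083 to 3271 bp with a median of 1876.5 bp, and Rplp2 (chr7:141447370-141451585) in the 6 larger lists only, of 1604 to 2103 bp. Rpsa (chr9:120127689-120132369), a small subunit protein also known as a laminin receptor, was likewise present in the 6 larger lists only, with 2807 and 1989 bp in the medial and lateral nasal plates of e11.5, 2594 and 2908 bp in the maxillary process and nose of e13.5, and 3134 and 3536 bp in the e15.5 libraries labelled mandibular and maxillary. Rpsa shows that a wide peak, at the 80.1st percentile on average where present, did not ensure a call in a smaller list.

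**Figure D2:**
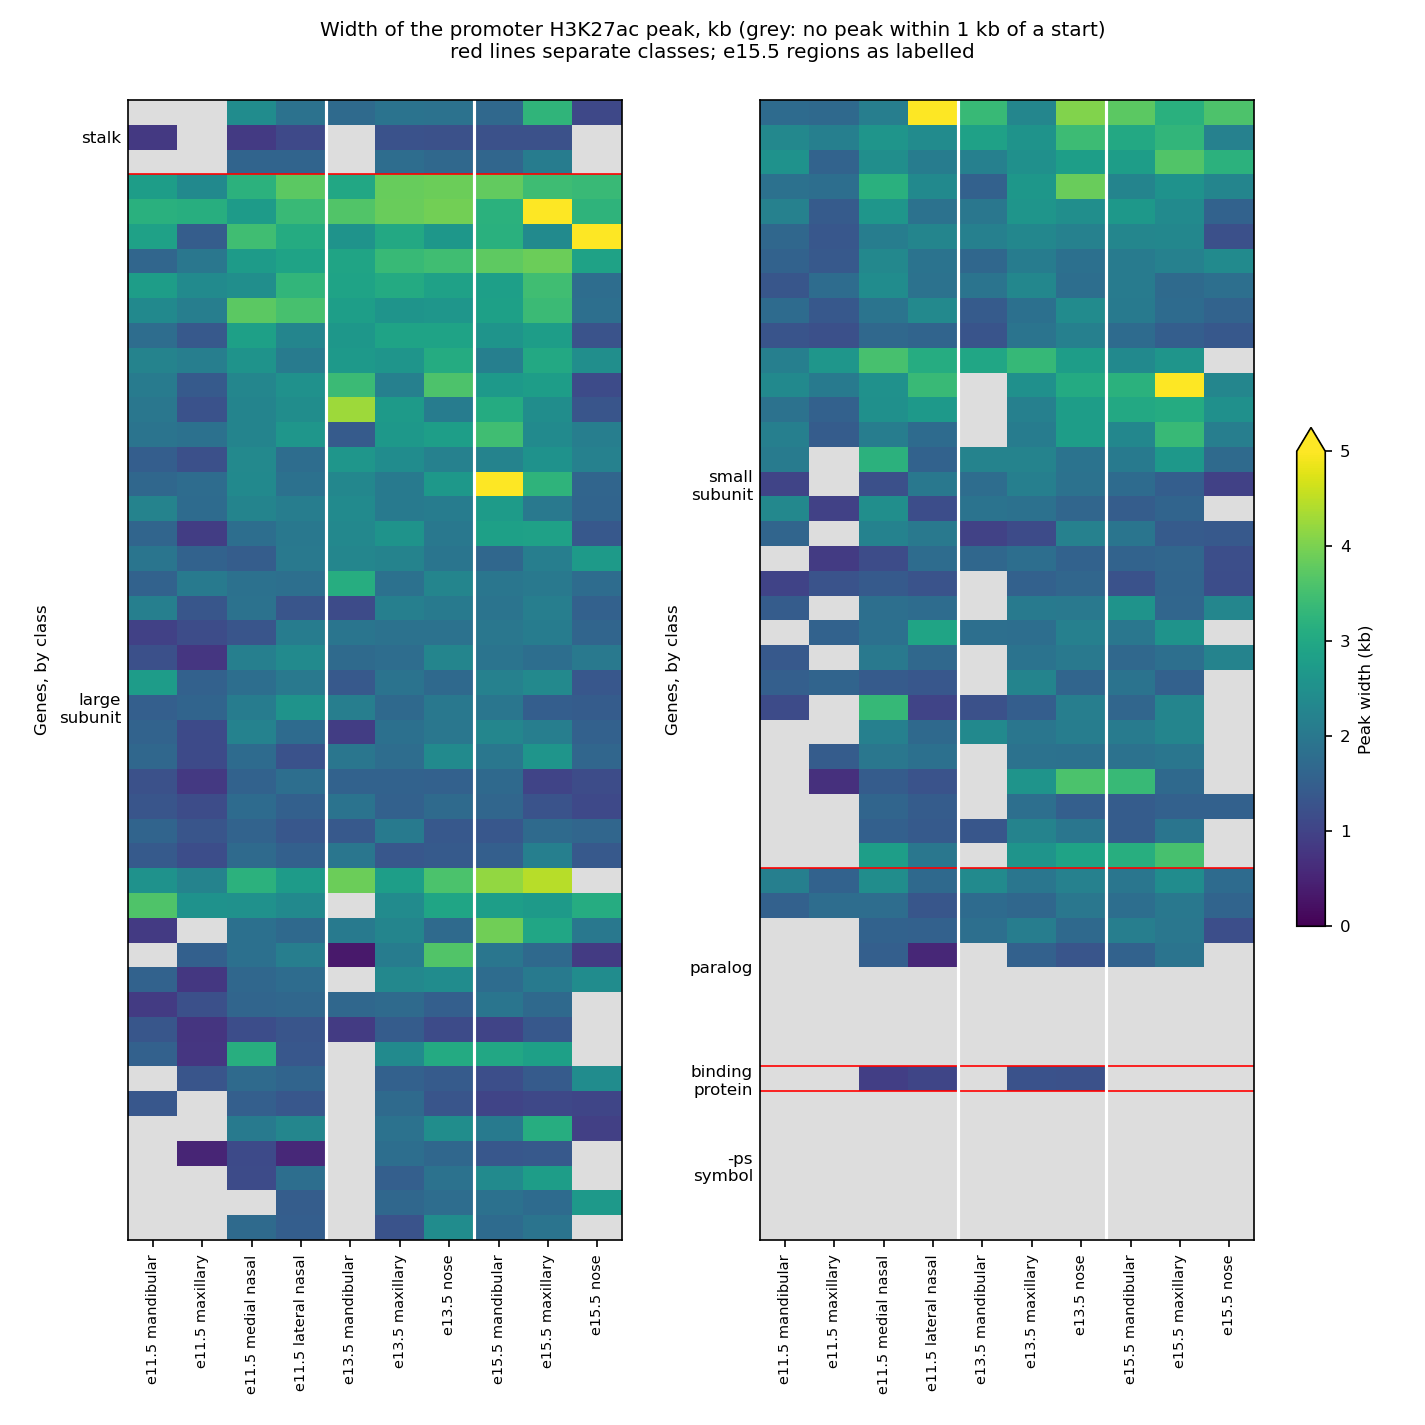
Width of the widest promoter peak (colour, kb) of each of the 92 genes (rows, in 2 panels, grouped by class between red lines and ordered within it by the number of libraries with a peak) in each library (columns, e11.5 to e15.5 from left to right, white lines between stages). Grey marks genes without a promoter peak, which fall in the 4 smaller lists for 88 of the 91 absent pairs of genes with a peak elsewhere, and fill whole rows for 10 genes, among them all 6 with -ps symbols.

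Of the 10 genes with no peak in any library, 6 were the -ps symbols (Rpl9-ps1, Rpl9-ps6, Rpl10-ps3, Rpl36-ps4, Rpl36a-ps1 and Rps12-ps3), whose median gene length was 535 bp. The other 4 were paralogs: Rpl3l, the paralog of Rpl3 known from striated muscle, Rpl10l and Rpl39l, known from the testis, and Rps27rt, a short copy of Rps27. Skeletal muscle markers had a promoter peak for 0 to 2 of 5 genes per library and germ cell markers for 0 to 1 of 3. The paralogs Rps27l, with 1573 to 2446 bp, and Rpl7l1, with 1334 to 1995 bp, had a peak in all 10 libraries. Rpl36al had one in 8 libraries and Rpl22l1, the paralog of Rpl22, in the 6 larger lists. Peaks of near-identical gene copies are uncertain, since reads that map to several places cannot be assigned to one.

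Besides Rplp0, Rplp2, Rpsa and Rpl22l1, the genes in the fewest libraries included Rps19bp1 in 4 libraries, Rpl14, Rpl35 and Rpl36a in 6, and Rpl22, Rps2, Rps10, Rps13, Rps23 and Rps26 in 7. Rps19bp1 had 937 and 1036 bp in the medial and lateral nasal plates of e11.5 and 1265 and 1236 bp in the maxillary process and nose of e13.5. With a mean width at the 18.4th and a mean fold enrichment at the 6.91st percentile, it had the weakest promoter peaks of the set. Rpl22 (516 to 1804 bp) was also low, with a mean fold enrichment at the 28.96th percentile.

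The 15 genes listed for human Diamond-Blackfan anaemia or related blood disease and for mouse skeletal and pigment mutants all had promoter peaks. Rps19, the gene most often mutated in that anaemia (chr7:24884371-24889806), had peaks of 2149, 2620, 3551 and 3096 bp in the mandibular process, maxillary process, medial nasal plate and lateral nasal plate of e11.5, 2964, 3350 and 2792 bp in the mandibular process, maxillary process and nose of e13.5, and 2380 and 2601 bp in the e15.5 libraries labelled mandibular and maxillary. Its width was at the 80.1st percentile on average, with a range of 64.7 in the e15.5 library labelled mandibular to 91.6 in the medial nasal plate. Rps19 lacked a peak only in the e15.5 library labelled nose. Rpl5 (chr5:107900502-107909005) was also present in all but that library but narrow, with 767 to 1346 bp at e11.5, 875 to 1454 bp at e13.5 and 1019 and 1373 bp at e15.5. Its mean width was at the 21.3rd percentile, while its mean fold enrichment was at the 71.8th, so that a narrow peak was not a weak one.

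Rpl11, whose product binds the p53 inhibitor Mdm2 together with that of Rpl5, had peaks in all 10 libraries, of 909 to 2289 bp. Rpl38, mutated in the mouse Tail short line with its axial skeletal defects (chr11:114668524-114672331), had peaks of 1312, 1169, 1742 and 1526 bp at e11.5, 1914, 1558 and 1738 bp at e13.5, and 1642, 1278 and 1102 bp at e15.5, with the regions in the order used above. Peaks in all 10 libraries were also found for Rpl26 (965 to 2107 bp), Rpl35a (1135 to 2152 bp), Rps14, a gene of a human myelodysplastic syndrome (1717 to 6016 bp), and Rpl27a (1817 to 3732 bp), which is mutated in the mouse Sooty foot ataxia line. Rpl24, mutated in the mouse Belly spot and tail line, had a peak in 9 libraries (877 to 1950 bp), as did Rps24 (869 to 1814 bp). Rps20, one of the mouse dark skin genes (1031 to 3355 bp), and Rps7 (1398 to 2246 bp) had one in 8, and Rps10 (688 to 3587 bp) and Rps26 (1704 to 2372 bp) in 7. In the 6 larger lists all 15 of these genes had a promoter peak, as 80 of the 92 genes did.

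The width of the widest promoter peak per gene was compared next. The median over ribosomal protein genes was 1663, 1450, 2050 and 1828.5 bp in the mandibular process, maxillary process, medial nasal plate and lateral nasal plate of e11.5, against 1750, 1488.5, 1749 and 1626 bp over all protein-coding genes with a promoter peak. At e13.5 it was 1965, 2037 and 2105.5 bp in the mandibular process, maxillary process and nose, against 1964, 1789 and 1864.5 bp. At e15.5 it was 2046, 2156 and 1660 bp, by the labels mandibular, maxillary and nose, against 1982, 2004 and 1863 bp. Ribosomal protein promoters thus lay near the middle of each library's promoters, with median ranks between the 41.4th and the 63.3rd percentile, and the 4 smaller lists had the lowest 4 ranks (41.4 to 50.1). The stage means of these medians were 1748 ± 254 bp at e11.5 (SD, n = 4), 2036 ± 70.3 bp at e13.5 (n = 3) and 1954 ± 260 bp at e15.5 (n = 3), with overlapping libraries. The genes of the large and of the small subunit had nearly equal widths, with a median over genes of 1916 and 1906.5 bp.

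**Figure D3:**
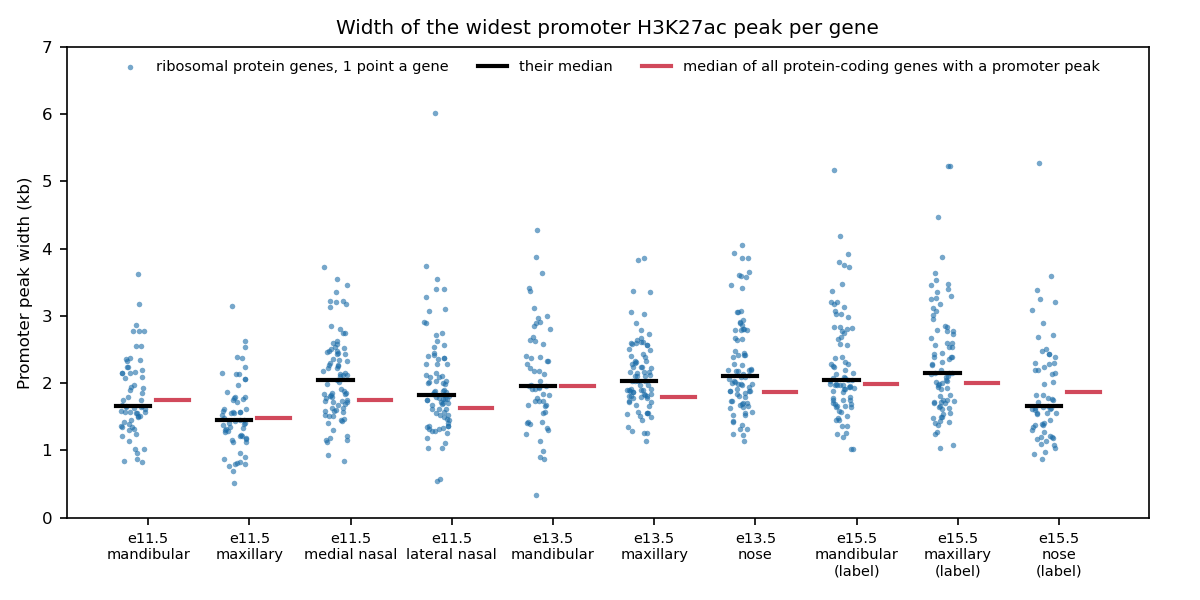
Width of the widest promoter peak (y axis, kb) of each ribosomal protein gene (blue points) in each library (x axis), with their median (black) and the median over all protein-coding genes with a promoter peak (red). The black line lies above the red in the 6 larger lists and in the e13.5 mandibular process, where the medians are 1965 and 1964 bp, and below it in the 3 other smaller lists. The highest point, 6016 bp, is Rps14 in the e11.5 lateral nasal plate.

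Among the 40 genes with a peak in all 10 libraries, the widest by median were Rpl41 (3420 bp), which encodes a very short, basic large subunit protein, Rpl13a (3328 bp), Rps14 (3273.5 bp), Rpl3 (2944 bp) and Rpl7 (2905 bp). Rpl41 (chr10:128548114-128549305) had 2779, 2373, 3216 and 3736 bp at e11.5, 3001, 3839 and 3868 bp at e13.5 and 3807, 3455 and 3385 bp at e15.5, in the same order of regions. Its peak exceeded its own gene length of 1192 bp in every library and also reached the start of Zc3h10. Among the narrowest were Rpl36 (1469 bp), Rpl29 (1490.5 bp), Rpl38 (1542 bp) and Rpl27 (1563.5 bp). Narrow peaks here could be strongly enriched, with Rpl29 at the 91.0th percentile of fold enrichment on average, while Rpl36 was at the 35.7th. The most enriched were Rpl27a (91.2nd percentile), Rpl29 and Rpl10 (89.8th), chosen after their values were seen.

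Some of the widest values came from start sites far apart. For 7 genes (Rpl11, Rpl13a, Rpl17, Rpl18, Rps10, Rps14 and Rps18) at least 1 library had its widest promoter peak, or its only one, at a start other than the principal one, taken as the most upstream start of a transcript that APPRIS calls principal. Annotated starts of Rps14 lay up to 29090 bp and those of Rpl11 up to 24595 bp from the principal start. The 6016 bp peak of Rps14 in the e11.5 lateral nasal plate (chr18:60744295-60750310) covered the principal start and also came within 1 kb of a start of Ndst1. In the other 3 libraries of e11.5, the e13.5 maxillary process and the e15.5 library labelled nose, the widest peak lay at another start further downstream, as at chr18:60773903-60775652 in the e11.5 mandibular process. With the principal start alone, 95.7% of the 729 gene and library pairs kept the same peak, against 90.9% over all protein-coding genes, and 37 ribosomal protein genes had a peak in all 10 libraries, against 2628 of all protein-coding genes.

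Widths were then compared between stages with limma on log2 width, each library centred on its median over the genes tested, across all 2854 protein-coding genes with a promoter peak in all 10 libraries, with Benjamini-Hochberg adjustment and a threshold of 0.05. For e15.5 against e11.5, 34 genes passed (1.19%), 22 wider and 12 narrower, and none of the 40 ribosomal protein genes tested was among them. Of the 40, 1 (2.5%) had an unadjusted p under 0.05, against 16.0% of all genes tested. The median log2 difference was -0.08 over the ribosomal protein genes (range -0.47 to 0.42), against -0.03 over all genes tested, and 24 of the 40 were below 0. The 95% intervals of the 40 differences lay between -0.88 and 1.03 on the log2 scale, so these intervals reached about 2-fold for single genes.

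The gene below an unadjusted p of 0.05 was Rpl32, a large subunit protein gene, with peaks of 1962, 1501 and 1457 bp in the e15.5 libraries with the labels mandibular, maxillary and nose, against 1507, 1611, 2105 and 2574 bp in the mandibular process, maxillary process, medial nasal plate and lateral nasal plate of e11.5. The stages overlapped, and the log2 difference was -0.47 (SE 0.19, limma adjusted p = 0.254). Rpl38 had 1642, 1278 and 1102 bp at e15.5, against 1312, 1169, 1742 and 1526 bp at e11.5, again overlapping, with a log2 difference of -0.34 (SE 0.16, limma adjusted p = 0.313). At the other end stood Rpl13, with 5164, 3251 and 1633 bp at e15.5, against 1678, 1772, 2366 and 1871 bp at e11.5, and Rpl7, with 3753, 3874 and 2890 bp at e15.5, against 1645, 1975, 2744 and 2897 bp at e11.5. The log2 difference was 0.42 for Rpl13 (SE 0.27, limma adjusted p = 0.473) and 0.38 for Rpl7 (SE 0.19, limma adjusted p = 0.337). The stages overlapped for both genes, and neither passed the test.

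**Figure D4:**
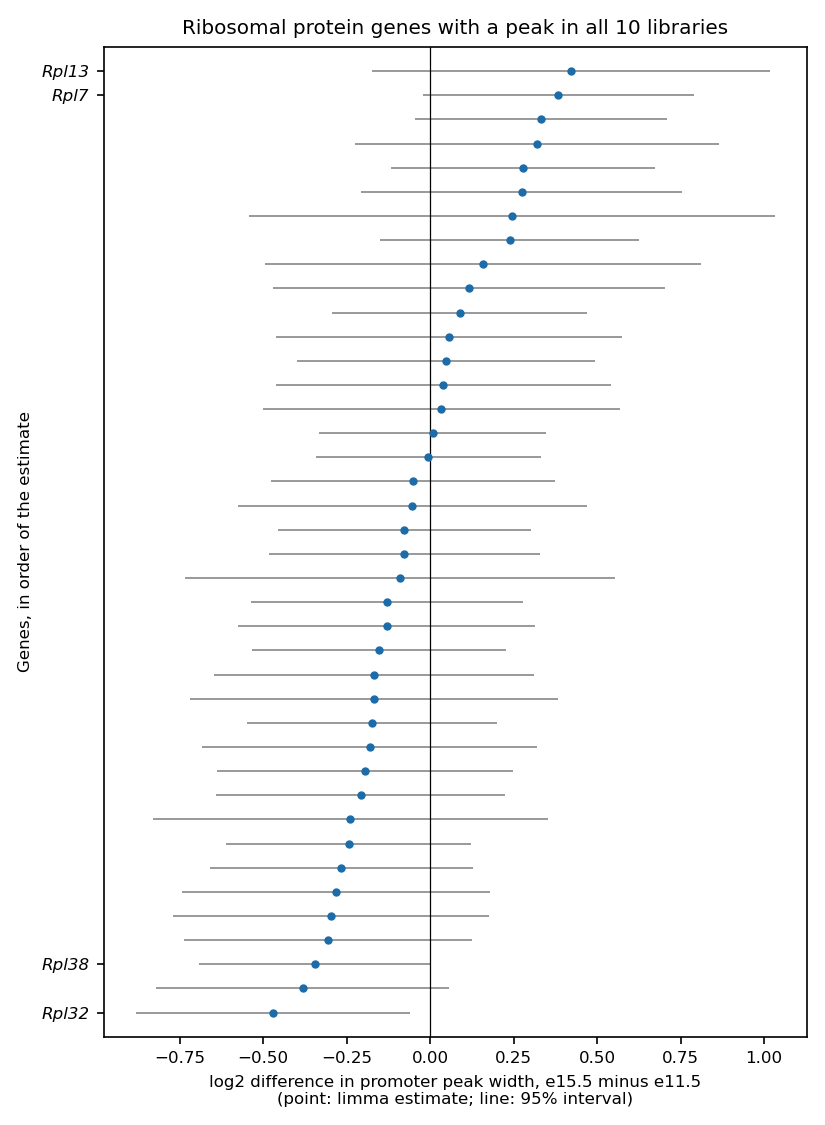
Fitted log2 difference in promoter peak width, e15.5 minus e11.5 (x axis, limma estimate with its 95% interval), for each of the 40 ribosomal protein genes with a peak in all 10 libraries (rows, in order of the estimate, with the genes described in the text labelled). The estimates run between -0.47 (Rpl32) and 0.42 (Rpl13), every interval but that of Rpl32 reaches 0, and none passed the adjusted threshold.

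For e13.5 against e11.5, 1 of 2854 genes passed (0.0350%) and none of the 40 ribosomal protein genes did, with 1 of them at an unadjusted p under 0.05. This was Rpl8, with 1403, 1910 and 1705 bp at e13.5, against 2769, 1549, 1814 and 2016 bp at e11.5 (log2 difference -0.50, SE 0.22, limma adjusted p = 0.709). For e15.5 against e13.5, 1 gene passed (0.0350%) and again none of the 40, with Rpl38 at an unadjusted p under 0.05, with 1642, 1278 and 1102 bp at e15.5, against 1914, 1558 and 1738 bp at e13.5 (log2 difference -0.40, SE 0.17, limma adjusted p = 0.860). The median difference over the 40 genes was 0.02 for e13.5 against e11.5 and -0.04 for e15.5 against e13.5, against -0.02 and -0.01 over all genes tested.

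Between regions, the nasal and jaw libraries of e11.5 and e13.5 were compared with stage as a covariate. Of 3329 genes tested 2 passed (0.0601%), and none of the 45 ribosomal protein genes tested was among them, with 1 at an unadjusted p under 0.05. This was Rpl23, a large subunit protein gene, with 2156 and 2400 bp in the medial and lateral nasal plates and 2278 bp in the e13.5 nose, against 1219 and 798 bp in the mandibular and maxillary processes of e11.5 and 1731 and 1794 bp in those of e13.5. The log2 difference was 0.64 (SE 0.20, limma adjusted p = 0.596). All nasal values of Rpl23 were above all its jaw values, but the gene was picked by its p. How many of the genes tested separate in this way was not counted, and most of the jaw lists were smaller ones. Over all genes tested, 231 (6.94%) had an unadjusted p under 0.05. The median over the 45 genes was 0.01, against 0.00 over all genes tested. Differences of more than 2-fold were seen for none of the ribosomal protein genes in the 4 comparisons and were rare among all genes, with 80, 20 and 31 of 2854 for e15.5 against e11.5, e13.5 against e11.5 and e15.5 against e13.5, and 38 of 3329 for nasal against jaw. Over the 10 libraries, the SD of centred log2 width had a median of 0.26 over the 40 ribosomal protein genes and 0.29 over the 2854 genes.

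Stage was also compared in the 6 larger lists alone, a setting added after the lists were seen, which raised the number of ribosomal protein genes tested to 80 among 7132 genes. In these lists e11.5 was the 2 nasal plates and e15.5 the libraries labelled mandibular and maxillary, so stage and labelled region cannot be told apart in this fit. No gene of any kind passed for e15.5 against e11.5. At an unadjusted p under 0.05 there were 7 of the 80 ribosomal protein genes and 983 of the 7132 genes, and the median log2 difference was -0.05 over the 80, against -0.03 over all. The largest was that of Rpl13, at 0.76 (SE 0.27, limma adjusted p = 0.306). The lowest was that of Rpl6, at -0.65 (SE 0.23, limma adjusted p = 0.306), followed by Rpl32, at -0.64 (SE 0.23, limma adjusted p = 0.305). Rps19 came next, at -0.62 (SE 0.21, limma adjusted p = 0.293).

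The peaks sat around the start and extended further into the gene than before it. Relative to the principal start, the peak of a ribosomal protein gene reached a median of 495.0 to 763.0 bp before the start and 987.5 to 1441.0 bp after it in the 10 libraries, against 630.0 to 837.5 bp before and 845.5 to 1135.0 bp after over all protein-coding genes. The lean toward the gene body was thus seen in both and was larger for ribosomal protein genes in every library. These positions are those of the widest peak at any annotated start, set against the principal start. For Rpl17, for example, no peak lay at the principal start in any of the 10 libraries. How far the choice of start shaped the lean was not tested. The base of the principal start was inside the peak for 77.0 to 97.6% of ribosomal protein genes with a peak, against 73.1 to 84.2% of all genes with one, and was lower only in the e15.5 library labelled nose (77.0%, against 78.9%). At 1 kb after the start, 69.6% of ribosomal protein genes with a peak were covered on average over libraries, against 44.4% of all, and at 1 kb before it 21.5%, against 31.3%.

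**Figure D5:**
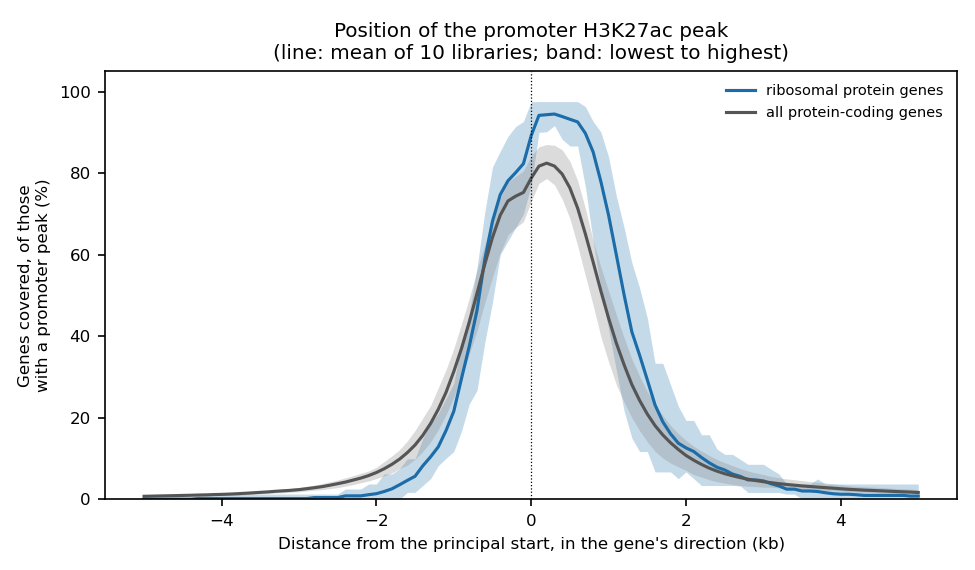
Share of genes covered by their promoter peak (y axis, percent of genes with one) by distance from the principal start (x axis, kb, positive into the gene), for ribosomal protein genes (blue) and all protein-coding genes (grey), with the mean of the 10 libraries as a line and their lowest to highest value as a band. At the start itself the means are 89.2% and 78.8%, and 1 kb into the gene they are 69.6% and 44.4%.

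Ribosomal protein genes are short, and the peaks took up much of them. The median gene length of the 82 genes with a peak was 3328.5 bp (828 to 31449 bp), against 24943.5 bp for the 12282 protein-coding genes with one. The promoter peak covered a median of 29.96 to 44.6% of the gene body across libraries, against 2.89 to 4.53% over all genes. For 15 genes the median width exceeded the gene's own length, as it did for 2.82% of all genes. Rpl36, the shortest at 828 bp, lay wholly inside its peak in all 10 libraries and Rpl41 in 9.

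A further trait of the set that the symbol rule did not use was the snoRNA genes in their introns, which encode small RNAs that guide chemical changes of ribosomal RNA. A snoRNA gene on the same strand lay inside 30 of the 82 genes with a peak (36.6%), against 1.70% of all protein-coding genes with a peak, and together they held 58 such genes. Rpl4, for example, held 5 and Rpl13a held 4. The genes with a peak were spread over 19 chromosomes, 4 of them (Rpl10, Rpl36a, Rpl39 and Rps4x) on X.

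For 22 of the 82 genes a promoter peak of at least 1 library also came within 1 kb of a start of another protein-coding gene, so the mark there cannot be assigned to one of them. Neighbours within reach of the same peak included Zwilch at Rpl4, Med22 at Rpl7a, Polr3a at Rps24 and Mgat2 at Rpl36al. The peaks of the other 60 genes reached no other protein-coding start.

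Related genes outside the rule were counted in the same way. Of ribosomal proteins with other symbols, Rack1, a small subunit protein (2118 to 4083 bp), had a peak in all 10 libraries and Fau, made as a fusion with a ubiquitin-like protein, in the 6 larger lists only. Of 78 mitochondrial ribosomal protein genes, which build the ribosome of the mitochondrion, 9 had a peak in all 10 libraries, and 29.5 to 98.7% per library. Of 68 translation initiation and elongation factor genes 22 did (32.4%), with 42.6 to 89.7% per library, and of 24 genes of ribosomal RNA synthesis and ribosome assembly 5 did (20.8%), with 33.3 to 87.5%. The share in all 10 libraries was thus 43.5% for the ribosomal protein genes and lower in each of the 3 larger related lists, while in single libraries other lists could stand above it. The mitochondrial list was at 98.7% in the e13.5 nose and 92.3% in the e13.5 maxillary process, and the translation factors were at 89.7% in the e13.5 nose, where the ribosomal protein genes were at 89.1%, of whose 10 genes without a peak none encodes a large subunit, small subunit or stalk protein. These differences were not tested.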

How the data were processed

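The authors crosslinked dissected tissue, sonicated the chromatin, precipitated it with an antibody against H3K27ac and sequenced single-end reads of 50 bases. Mapping with BWA 0.7.7 to mm10, sorting with SAMtools 0.1.19 and calling with MACS2 2.2.4 are listed in the submitters' notes on processing. The deposited lists are broad peaks called per sample, with the authors' score, fold enrichment over background and −log10 p and q for each peak (lowest −log10 q 1.30). A gene without a called peak may still hold signal. Widths and fold enrichments depend on depth and enrichment, so ranks within a library are given beside them. The 10 input samples had no peak list here and were not used.

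Peaks on chromosomes 1 to 19, X and Y (144852 of 144896) were joined to 93513 transcript starts of protein-coding genes in GENCODE vM21, with a window of 1000 bp. The last peak of each chromosome ended within its GRCm38 length in all 208 cases. A gene's width was that of its widest promoter peak. Shares have exact Clopper-Pearson 95% intervals. limma 3.58.1 (R 4.3.3) tested log2 widths, with stage, or with region and stage, as terms. The assignment of peaks was checked with bedtools 2.31.1 and the fits were tested on simulated data. Tables were handled in Python 3.11.15 (pandas 2.3.3, numpy 2.4.6), intervals came from scipy 1.17.1 and plots from matplotlib 3.10.9. Whether one embryo gave several of the libraries is not given in the sources used here.

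The members and lists were chosen with earlier results of these data known. Genes were named by rule: Rplp0, Rplp1, Rplp2 and Rpsa; 15 genes of Diamond-Blackfan anaemia or mouse skeletal and pigment mutants; genes with no peak; the 15 in the fewest libraries; the 5 widest and 5 narrowest in all 10; and any past a limma threshold. Some genes that the rule names are not reported here. Genes just under the threshold, those leading a ranking of fold enrichment and neighbours at shared peaks were named after their values were seen. Alternatives were windows of 0 and 2.5 kb, a −log10 q of at least 2, starts of basic transcripts, equal yield, summed widths, other centring, autosomes, a region block, all 10 libraries by label and leaving out each library. Principal starts and the lists with over 10000 peaks were added after seeing the data.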

Additional observations from a re-analysis of the deposited data

Results flagged for a closer look

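Among 13 groups of 4 libraries looked at, 1 held a value far from the others, and chance alone flags about 1 in 20 groups. The widest promoter peak of Rps14 was 6016 bp in the e11.5 lateral nasal plate and 1717 to 2139 bp in the other 3 libraries of e11.5. Those 3 peaks lay at other starts. At the principal start the width of Rps14 was 6016 bp in the lateral nasal plate, 646 bp in the mandibular process and 1618 bp in the medial nasal plate, with no peak in the maxillary process.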

How the results depend on the processing

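No ribosomal protein gene passed the limma threshold under any of the 21 alternatives for e15.5 against e11.5, 22 for e13.5 against e11.5, 21 for e15.5 against e13.5 and 18 for nasal against jaw. Genes of any kind that passed numbered 0 to 50 over these alternatives for e15.5 against e11.5 (34 as reported), 0 to 5 for e13.5 against e11.5 (1), 0 to 4 for e15.5 against e13.5 (1) and 0 to 13 for nasal against jaw (2). Of 65 stage shares and widths under alternatives, 64 lay within 1 SD of the value reported. The exception was the share at e15.5, which was 65.9% with equal yield, against 80.8% with all peaks. Leaving out 1 library cannot move a stage mean by as much as 1 SD, so those alternatives could not have fallen outside. For the shares the SD was 12.6 to 15.7 points and spanned smaller and larger lists, so the count of values within it carries little. Without centring, the median difference over ribosomal protein genes was 0.16 for e15.5 against e11.5, 0.26 for e13.5 against e11.5 and 0.24 for nasal against jaw, against -0.08, 0.02 and 0.01. Leaving out 1 library moved the stage shares to 73.6 to 81.5% at e11.5, 75.5 to 89.1% at e13.5 and 77.2 to 88.0% at e15.5. The labels carry no replicate numbers, so samples were not paired by number. With region as a block (7 libraries, limma), none of 45 ribosomal protein genes and none of 3329 genes passed for e13.5 against e11.5, with 1 and 289 at an unadjusted p under 0.05.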
